A study of Homo sapiens with 2 samples.

Results

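The genes described here encode the nuclear subunits of mitochondrial respiratory complexes I to IV and of the ATP synthase (complex V), with the NDUFAF assembly factors of complex I. They were taken from an Affymetrix Human Genome U133 Plus 2.0 array table as every probe set annotated to exactly 1 symbol that starts with NDUF, UQCR, ATP5 or COX4 to COX8, or that is 1 of a few further named genes (here SDHA, SDHC, SDHD, CYC1 and COXFA4L3). The rule found 175 of 54675 probe sets, for 92 of 19775 gene symbols. These were 33 genes of complex I, 3 of complex II, 7 of complex III, 18 of complex IV, 18 of complex V, 8 NDUFAF genes, and 5 antisense RNA, divergent RNA or pseudogene symbols (6 probe sets) that share the name prefixes.

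The cells were Seg-1, an adherent line first regarded as esophageal adenocarcinoma and since identified, per the labels' protocols, as the lung cancer line H460. One array held RNA from cells reverse transfected with FGF-AS siRNA. FGF-AS is transcribed opposite to FGF2 and encodes the nudix protein NUDT6. The other held RNA from cells given a negative control siRNA without homology to known genes. Both cultures received a lipid reagent and siRNA (final concentrations of 25 to 200 nM are given for the protocol as a whole) and were harvested after 72 hours, and neither array came from untransfected cells. With 1 array per group no difference has a replicate check, so differences are described by size and no p-value is given.

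In oxidative phosphorylation, complexes I and II pass electrons from NADH and succinate to ubiquinone. Complex III passes them to cytochrome c and complex IV to oxygen. Proton pumping by complexes I, III and IV drives complex V, a rotary enzyme that makes ATP. All of complex II and most subunits of the others are encoded in the nucleus, and assembly factors help to build complexes without staying in them. The subunits encoded in mitochondrial DNA were not analysed here.

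Values are probe set signals in the authors' linear units. After 6.1 was added to each signal, the log2 ratio was taken as FGF-AS siRNA over control siRNA, so a positive ratio means a higher signal with FGF-AS siRNA. Each gene is given by its brightest probe set, and it counted as measured when the mean of both arrays reached 23.9, the median of all probe sets. A stricter minimum of 145.2 is the 75th percentile. NUDT6, the siRNA target, read 104.5 with FGF-AS siRNA and 376.9 with control siRNA (log2 ratio -1.79), and 77.8 against 267 on its other probe set. The only error available comes from probe sets that share a gene. At the stricter minimum their log2 ratios had an SD of 0.36 (3050 genes) and among dimmer probe sets one of 0.58 (2365 genes), and this covers neither cultures nor hybridisations. Of the epithelial markers, KRT18 read 9327.2 and 10152.5, KRT8 read 3780.9 and 3475.7, and KRT19 read 311.6 and 316.5 (FGF-AS siRNA first). EPCAM was dim at 43.8 and 34, and CDH1 read under the minimum. Of the 5 lung markers NKX2-1 and SCGB1A1 read under the minimum. The other 3 were dim: SFTPC read 59.1 with FGF-AS siRNA and 14.7 with control siRNA (1.65, with 4 other probe sets under the minimum), NAPSA 44 and 31.9 (0.40), and SFTPB 98 and 110.8 (-0.17). The 5 fibroblast markers, 3 of them measured, summed to 311.3 with FGF-AS siRNA and 537.7 with control siRNA, and COL3A1 held 104.6 and 316.4 of this. The leukocyte markers summed to 93.9 and 80.8. Of these only CD3E (52.7 and 33.5) and CD14 (16.8 and 38.3) were measured, and PTPRC read 19 and 0.5, under the minimum. The muscle markers summed to 151 and 94.5, and MB, the only one measured, held 135.4 and 84.1 of this. Both cultures were of the same cell line, so these sums are not counts of other cell types. The part of these markers in the results was not tested. Less RNA per cell cannot be told apart from fewer cells that express a marker.

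Most genes of the respiratory chain read nearly the same signal with either siRNA. Of the 92 symbols, 86 were measured, and 80 reached the stricter minimum. Of these 80, 62 lay within 0.25 of 0 on the log2 scale, and the same band held 55.8% of all 7719 genes at that minimum. At least 1.5-fold higher were 2 of the 80 genes and at least 1.5-fold lower was 1, where the background was 5.75% of genes in each direction. At least 2-fold higher was 1 gene (NDUFA5, background 0.985%), and at least 2-fold lower was 1 (COXFA4L3, background 1.11%). The 80 genes had a median ratio of 0.03 (SD 0.33 over the genes), beside -0.00 for all genes at that minimum (SD 0.38). Ratios spread less among brighter genes. Among genes with a mean signal of at least 1000, 58 of 70 respiratory chain genes and 66.2% of all 2148 genes lay within 0.25 of 0. The limit of 1000 was chosen after the values were seen.

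**Figure D1:**
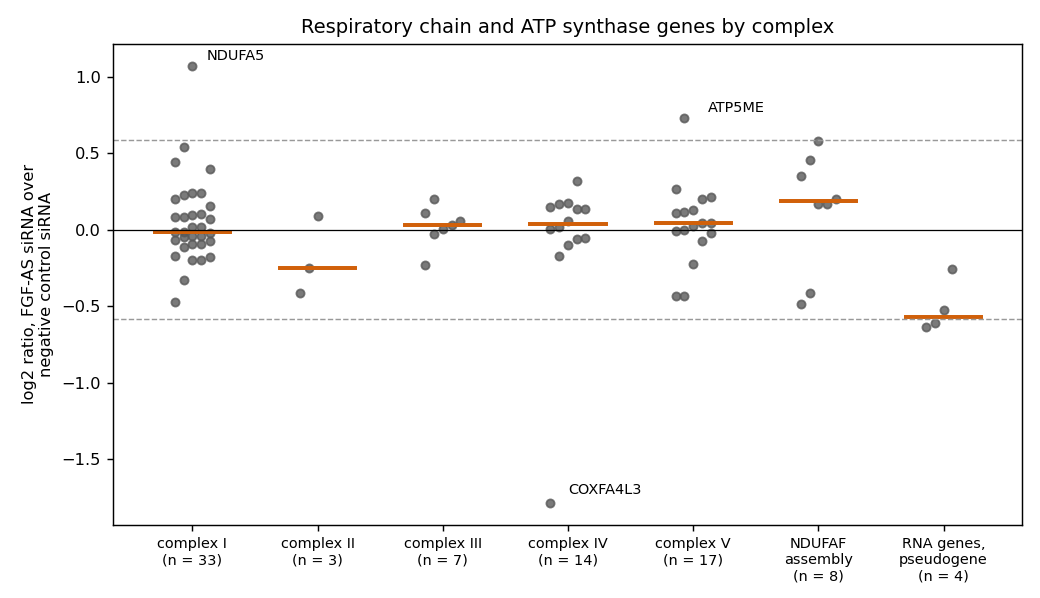
Log2 ratio (FGF-AS siRNA over negative control siRNA) of each measured gene by its brightest probe set, grouped by complex. Each point is 1 gene from 1 array per group, orange lines are group medians, and dashed lines mark 1.5-fold. NDUFA5 (1.07), ATP5ME (0.73) and COXFA4L3 (-1.79) lie outside the lines among the protein-coding genes, and complex III keeps within 0.25 of 0.

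The gene furthest from 0 was COXFA4L3. Older names for it are C15orf48 and NMES1. It encodes a small mitochondrial protein that is induced in inflamed cells and can take the place of COXFA4 (formerly NDUFA4) in complex IV. Its single probe set read 111.9 with FGF-AS siRNA and 400.7 with control siRNA (27.9% of control, log2 ratio -1.79). It ranked 9th lowest of the 7719 genes at the stricter minimum, and no second probe set was annotated to it. Across the alternative settings its ratio ran from -1.83 to -1.59. COXFA4 itself, which the naming rule leaves out, read 5664 and 5828.6 (log2 ratio -0.04). The paralog COXFA4L2, known as a hypoxia-induced gene and also outside the rule, read 60.9 with FGF-AS siRNA and 127.6 with control siRNA (47.7% of control), a dim signal. Within this family COXFA4 thus differed little, and both paralogs were lower with FGF-AS siRNA.

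The COXFA4L3 transcript is also the host of microRNA miR-147b, which is known to target COXFA4 mRNA. In RefSeq (GRCh38.p14) the mature strand lies inside the gene on the plus strand at chr15:45433098-45433118. It is shown because it shares the transcript of the gene furthest from 0, with the seed (bases 2 to 8) in capitals. The arrays did not report mature microRNAs, so its level is unknown.
hsa-miR-147b-3p: gUGUGCGGaaaugcuucugcu

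In complex I, the NADH dehydrogenase, all 33 genes were measured, and the median ratio was -0.01 (SD 0.28). Above 0 were 16 of them and below it 17, where 48.1% of all measured genes were above 0. This median changed sign between settings, from -0.02 to 0.07. The 5 core subunits measured, which carry the flavin and iron-sulfur clusters or line the ubiquinone site, had a median of -0.07, and the 28 accessory subunits had a median of 0.00. NDUFV1, which binds NADH, read 1830 with FGF-AS siRNA and 1559.9 with control siRNA (0.23). NDUFS3 read 2208.6 and 1925.9 (0.20), NDUFV2 read 1992 and 2091 (-0.07), and NDUFS7 read 771.8 and 886.4 (-0.20), in the same order. These 4 core genes differed by less than the probe set SD of 0.36.

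NDUFS1, the large iron-sulfur subunit through which electrons leave the NADH site, was lower on all 5 of its probe sets. Its brightest read 2052.5 with FGF-AS siRNA and 2582.5 with control siRNA (log2 ratio -0.33). The others read 336.5 against 420.6 (-0.32), 252.1 against 434.7 (-0.77), 30.4 against 71.8 (-1.09) and 21.9 against 41.8 (-0.77). The direction was thus shared, while the size differed widely between probe sets. Among all single-symbol probe sets at or above the minimum, brightest or not, 15.1% were at least 1.5-fold lower and 7.53% at least 1.5-fold higher.

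Among accessory subunits of complex I, NDUFA5 stood alone. It lies in the matrix arm near the ubiquinone site, and it read 1837.6 with FGF-AS siRNA and 871.7 with control siRNA, 2.10-fold higher. It ranked 54th highest of the 7719 genes, and its ratio ran from 1.05 to 1.13 over the settings. Its other probe set was under the minimum (10.8 and 3), so no second measured probe set bears on it. Subunits of the membrane arm came next. NDUFB7 read 968.7 with FGF-AS siRNA and 665.6 with control siRNA (0.54), and 39.1 against 10.1 (1.48) on a dim second probe set. NDUFB10 read 4880 against 3585.5 (0.44) and 1343.6 against 832.1 (0.69). NDUFA1 read 6810.8 against 5163.7 (0.40) on its only probe set. These genes had the highest ratios of complex I. By brightest probe sets only NDUFA5 was at least 1.5-fold higher, beside 5.75% of all genes at the stricter minimum.

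At the other end NDUFA7, a further accessory subunit, read 655 with FGF-AS siRNA and 910.4 with control siRNA (-0.47). NDUFS1 was the only other complex I gene below -0.25. All complex I genes reached the stricter minimum, where 55.8% of all genes lay within 0.25 of 0. The remaining 27 genes of complex I lay within this band. Among these were NDUFAB1, the mitochondrial acyl carrier protein (7832.4 and 6648.5, ratio 0.24), NDUFA9 (1502 and 1420.2, 0.08), NDUFA13 (3477.4 and 3428.7, 0.02) and NDUFB4 (6415.5 and 7265.1, -0.18). Some of them had a dim probe set that differed from the bright one. NDUFA10 gave -0.02 on its brightest probe set (2572.7 and 2606.1) and 1.10 on another (88.5 and 38). NDUFS7 gave 1.98 on a probe set with a mean signal under the minimum (31.9 and 3.5). NDUFV3 gave 0.16 (855.6 and 767.4) and -0.52 (131.4 and 191.3), and NDUFC1 gave 0.09 (4210.8 and 3968) and -0.83 (29.3 and 56.7).

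**Figure D2:**
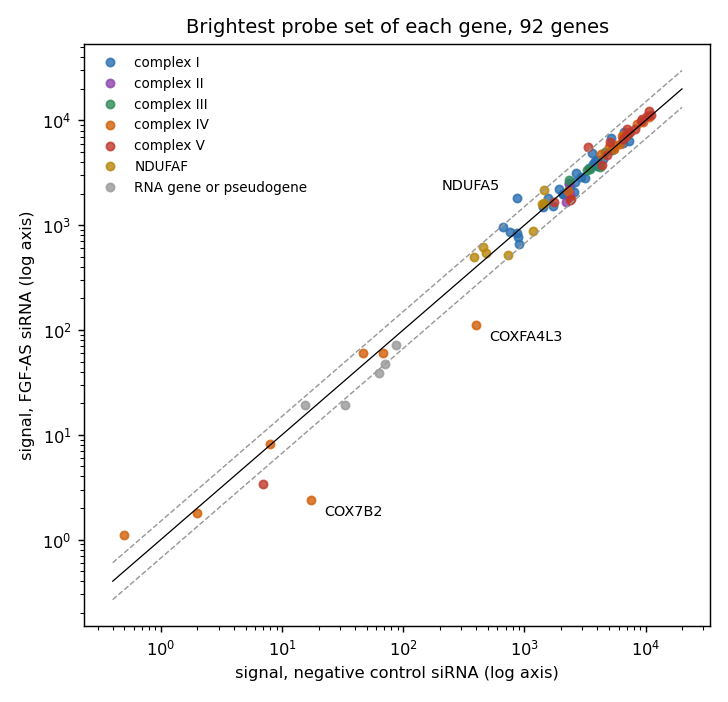
Signal with FGF-AS siRNA (vertical) against signal with negative control siRNA (horizontal) for the brightest probe set of each of the 92 genes, both on log axes, coloured by complex. The solid line is equality and dashed lines mark 1.5-fold. Outside the 1.5-fold lines among genes at the stricter minimum lie COXFA4L3 (111.9 and 400.7), NDUFA5 (1837.6 and 871.7) and ATP5ME (5624.9 and 3383.1), and points under the minimum, such as COX7B2 (2.4 and 17.4), carry little information.

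Complex II is succinate dehydrogenase, shared between the respiratory chain and the citric acid cycle, and 3 of its genes were analysed here. SDHC, a membrane anchor that binds heme and ubiquinone, was lower with FGF-AS siRNA on all 6 measured probe sets. The brightest 4 read 1657.4 against 2211.7 (-0.41), 1523.9 against 1825.5 (-0.26), 1562.7 against 1694.4 (-0.12) and 1115 against 2050.3 (-0.88). The dim ones read 102.3 against 160.8 (-0.62) and 68.6 against 110.8 (-0.65). Probe sets ending in _x_at can bind other transcripts, and both of the SDHC probe sets of that kind gave the smallest ratios. Whether such binding bears on the size of these ratios was not tested.

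SDHA, the flavoprotein that oxidises succinate, read 1977.3 with FGF-AS siRNA and 2358 with control siRNA (-0.25) on its single probe set, which is also of the _x_at kind. SDHD, the other membrane anchor, read 2491.9 and 2338.2 (0.09). The median of the 3 genes was -0.25 and ran from -0.27 to -0.20 over the settings. Direction was thus shared by SDHA and SDHC and not by SDHD. Of the 3 brightest probe sets that of SDHC lay furthest from 0. None reached 1.5-fold, as 5.75% of all genes at the stricter minimum did in each direction.

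Complex III, the cytochrome bc1 complex, was the most even of complexes I to V. Its 7 genes all lay within 0.25 of 0, around a median of 0.03 (SD 0.13). All had mean signals of at least 1000, and 66.2% of all genes that bright lay within this band. CYC1, the cytochrome that hands electrons to soluble cytochrome c, read 4986.6 with FGF-AS siRNA and 4614.8 with control siRNA (0.11). The structural core subunits UQCRC1 and UQCRC2 read 2685.2 against 2334.4 (0.20) and 3350.1 against 3284.8 (0.03), although a second probe set of UQCRC2 gave -0.22. UQCR10, a small subunit, was lowest at 3603.1 against 4229.6 (-0.23), with 145.9 against 192.9 (-0.39) on its other probe set. UQCRB, UQCRQ and UQCR11 had ratios of -0.03, 0.05 and 0.01.

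Complex IV, cytochrome c oxidase, had 14 of 18 genes measured, with a median ratio of 0.04. Of these, 12 lay within 0.25 of 0. That band held 49.0% of all measured genes and 66.2% of those with a mean signal of at least 1000. COX6A2, at 0.32 (59.9 and 46.8), and COXFA4L3 were the exceptions. The widely expressed subunits differed by little. COX4I1 read 7300.4 with FGF-AS siRNA and 6634.8 with control siRNA (0.14), and its other measured probe sets gave 0.15 and 0.06. COX5A read 9644.4 and 9617.3 (0.00), COX7C read 10856.3 and 10728.3 (0.02), COX6C read 5306.4 and 5536.8 (-0.06), and COX8A read 4810.2 and 4284.8 (0.17). COX5B gave ratios above 0 on all 4 measured probe sets, from 0.01 to 0.44. COX7A2L, which helps complexes III and IV join into supercomplexes, read 2114.7 and 2271.1 (-0.10).

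Several subunits of complex IV have tissue-restricted paralogs, and none of these differed clearly between the arrays. COX4I2, the lung and hypoxia form, was dim at 59.8 with FGF-AS siRNA and 68.3 with control siRNA (-0.18), as was the heart and muscle form COX6A2. COX7A1, a muscle form (1.8 and 2), the testis forms COX6B2 (8.1 and 8) and COX8C (1.1 and 0.5), and COX7B2 (2.4 and 17.4) read under the signal minimum. Detection calls were not used here, so such a signal cannot be told from background. The counterparts COX6A1 (9265.5 and 8433.9, ratio 0.14), COX6B1 (5606.4 and 4966.5, 0.17), COX7A2 (5946.6 and 6165.9, -0.05) and COX7B (7104.7 and 6409.9, 0.15) were all well within 1.5-fold.

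**Figure D3:**
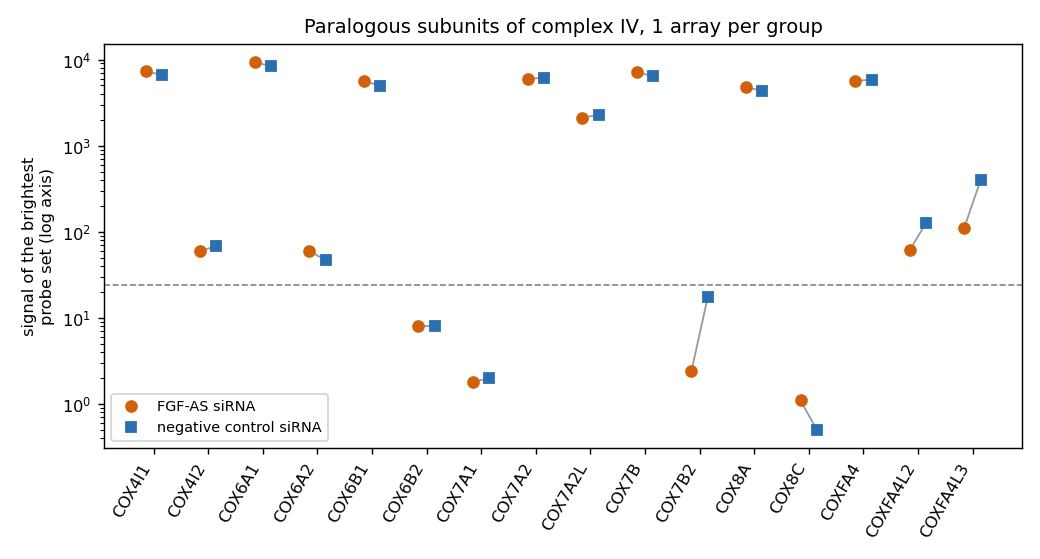
Signals of the brightest probe set (log axis) for paralogous subunits of complex IV, with FGF-AS siRNA (orange circles) left of negative control siRNA (blue squares), 1 array each. The dashed line is the signal minimum of 23.9. Heights compare the arrays within a gene and not genes with each other, since probe sets differ in response. COXFA4L3 (111.9 and 400.7) and COXFA4L2 (60.9 and 127.6) show the steepest lines above the minimum.

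The ATP synthase had 17 of 18 genes measured, 10 above and 7 below 0, and a median ratio of 0.04 (SD 0.27). These 17 reached the stricter minimum, where 49.4% of all genes were above 0. The catalytic F1 part was nearly level. ATP5F1A (alpha) read 12216.8 with FGF-AS siRNA and 10641.5 with control siRNA (0.20), and ATP5F1B (beta), which holds the catalytic sites, read 11154.1 and 11189.8 (-0.00). ATP5F1C, ATP5F1D and ATP5F1E, the central stalk, had ratios of 0.04, -0.08 and 0.13. All 5 genes had mean signals of at least 1000 and lay within 0.25 of 0, as did 66.2% of all genes that bright. ATP5F1D changed sign on its second bright probe set (0.18).

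The membrane and stator part held the wider differences. ATP5ME, subunit e, which helps 2 ATP synthases pair in the inner membrane, read 5624.9 with FGF-AS siRNA and 3383.1 with control siRNA (0.73). Its second probe set read 2994.8 against 1990 (0.59). Both are of the _x_at kind. ATP5MG, subunit g, with a like role in pairing, was higher on all 4 probe sets, with ratios from 0.09 to 0.24. ATP5PF, a peripheral stalk subunit, read 6171.2 against 5138.1 (0.26).

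The ring of c subunits, which turns as protons pass, is made from 3 genes that encode the same mature protein. They did not go one way. ATP5MC1 read 1750.6 with FGF-AS siRNA and 2366.4 with control siRNA (-0.43), and ATP5MC2 read 3723.4 and 4349.5 (-0.22). ATP5MC3 read 9831.7 and 9108.9 (0.11), with 0.15 and 0.30 on its other probe sets. ATP5IF1, the inhibitor that blocks ATP breakdown by the enzyme when the proton gradient fails, was lower on all 3 probe sets. They read 1791.7 against 2422 (-0.43), 1262.8 against 1625.6 (-0.36) and 357.3 against 498 (-0.47), so its 3 ratios lay close together. The others, ATP5PB, ATP5PD, ATP5PO, ATP5MJ and ATP5MK, had ratios from -0.02 to 0.11, although a dim second probe set of ATP5PD gave 1.16 (51.4 and 19.6). ATP5MF was dim on its single-symbol probe set (3.4 and 6.9).

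**Figure D4:**
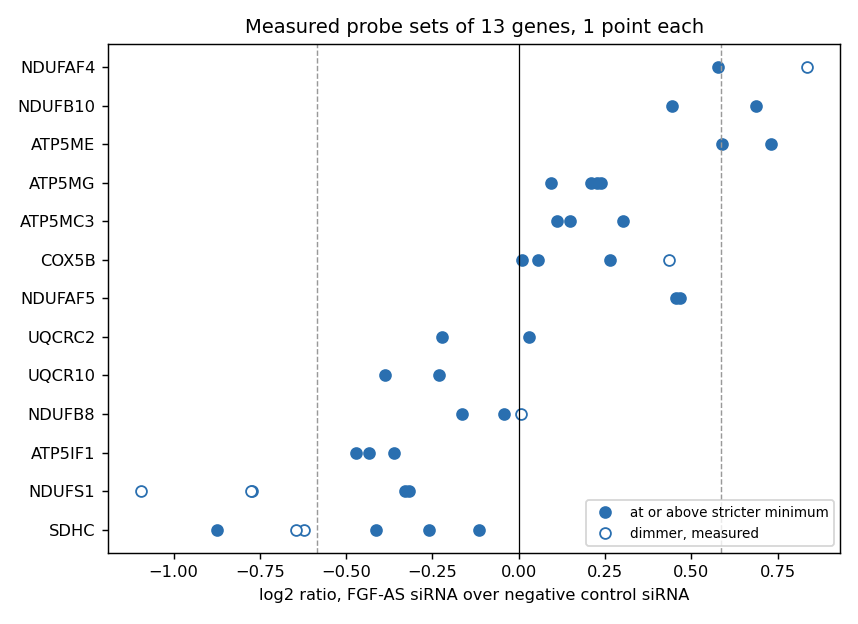
Log2 ratio (FGF-AS siRNA over negative control siRNA) of every measured probe set of 13 genes, 1 point per probe set. These were picked after the values were seen to show agreement and disagreement. Filled points reached the stricter minimum, open points were dimmer, and dashed lines mark 1.5-fold. All points of SDHC, NDUFS1 and ATP5IF1 lie below 0 and all points of ATP5ME, NDUFB10, NDUFAF4 and ATP5MG lie above it.

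Agreement between probe sets was examined for the 25 genes with at least 2 probe sets at the stricter minimum. In 17 of them all such probe sets lay on 1 side of 0, 12 above and 5 below, and the same held for 59.6% of all 3050 such genes. The 5 below were ATP5IF1, NDUFB8, NDUFS1, SDHC and UQCR10. The 12 above were ATP5F1C, ATP5MC3, ATP5ME, ATP5MG, COX4I1, COX5A, COX5B, NDUFA6, NDUFA11, NDUFAF5, NDUFB2 and NDUFB10. Within these 25 genes the ratios of probe sets had an SD of 0.17, beside 0.36 over all genes at this minimum. These sets were not matched for signal, and over all genes the SD was larger, at 0.58, among dimmer probe sets.

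The NDUFAF assembly factors of complex I were spread more widely than the subunits they serve (SD 0.39 against 0.28). Their spread was about that of all genes at the stricter minimum (SD 0.38), which all 8 reached. Of these 8 genes, 6 had ratios above 0 and 2 below it, where 49.4% of all genes at that minimum were above 0. The median was 0.18, and 3 genes lay within 0.25 of 0, a band that held 55.8% of all genes at that minimum. With _s_at and _x_at probe sets excluded the median was -0.03, and in the other settings it was at least 0.18. NDUFAF4, which acts with NDUFAF3 on an early intermediate, read 2163.3 with FGF-AS siRNA and 1447.9 with control siRNA (0.58), just under 1.5-fold, and 90.1 against 47.8 (0.84) on its other probe set. NDUFAF3 itself went the other way at 883 against 1179.7 (-0.42).

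NDUFAF5, which hydroxylates the core subunit NDUFS7, read 624.2 with FGF-AS siRNA and 453.4 with control siRNA (0.46) and 587.6 against 423.3 (0.47). Its partner NDUFAF8 read 1603.2 and 1391.8 (0.20). NDUFAF6 read 495.3 and 386.8 (0.35), with 0.38 on its other probe set. NDUFAF1, a part of the module that builds the membrane arm, was lowest at 519.6 against 730.8 (-0.49). The late factor NDUFAF2 (1634 and 1455.1) and the methyltransferase NDUFAF7 (541.6 and 482) both stood at 0.17. The ratios of NDUFAF1, NDUFAF3, NDUFAF4 and NDUFAF5 lay furthest from 0, and they pointed both ways. By brightest probe sets no NDUFAF gene reached 1.5-fold, as 5.75% of all genes at the stricter minimum did in each direction.

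The measured RNA genes and pseudogene were all dim and all lower with FGF-AS siRNA, where 46.0% of the 4633 measured genes under the stricter minimum were higher. NDUFV2-AS1, an antisense transcript, read 19.2 with FGF-AS siRNA and 33.2 with control siRNA (-0.64). NDUFB2-AS1 read 38.9 and 62.6 (-0.61), the pseudogene ATP5MC2P1 read 46.9 and 70.2 (-0.53), and the divergent transcript NDUFV1-DT read 71.6 and 86.7 (-0.26). COX6A1P1 read under the minimum (19.2 and 15.4). At least 1.5-fold lower were 2 of the 4, and 15.8% of those 4633 genes were that low. All 4 differed by little more than the dim probe set SD of 0.58 or by less. The sense genes NDUFV2, NDUFB2 and NDUFV1 had ratios of -0.07, 0.07 and 0.23.

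Other genes of the pathway were taken from lists of assembly factors, electron carriers and mitochondrial DNA regulators. Over the assembly factors of all complexes besides NDUFAF, 44 of 46 genes were measured, with a median ratio of -0.08, 19 above and 25 below 0. Among all measured genes 48.1% were above 0. SDHAF4, which helps SDHA mature, read 87.8 with FGF-AS siRNA and 196.3 with control siRNA on its only probe set (-1.11), the one gene of these lists at least 2-fold lower (background 2.72% of measured genes). COX19, a complex IV assembly factor in the copper pathway, was the one at least 2-fold higher (70.5 and 30.3, ratio 1.07, background 2.05%), but its second probe set gave 0.15. The other complex I factors had a median of -0.20 (11 genes, 3 above 0), and the 22 measured complex IV factors one of 0.04 (12 above 0), which was -0.08 with the mean over probe sets.

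Of 15 measured genes of electron carriers and ubiquinone synthesis, 11 were below 0 and 4 above it, where 48.1% of all measured genes were above 0. The median was -0.29 and ran from -0.32 to -0.20 over the settings. At least 1.5-fold lower was 1 and at least 1.5-fold higher was none, where the background over measured genes was 9.52% and 7.96%. The genes named next were chosen after their values were seen. COQ8A, an atypical kinase needed for ubiquinone synthesis, read 277.1 with FGF-AS siRNA and 475 with control siRNA (-0.76) and 35.1 against 69.3 (-0.87). ETFDH, which feeds electrons from fatty acid oxidation to ubiquinone, read 587.4 against 801.7 (-0.44) and 514.3 against 656.4 (-0.35). CYCS, cytochrome c itself, went the other way at 11645.8 against 8449.1 (0.46), with -0.01 and -0.58 on dim probe sets.

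Of 16 regulators of mitochondrial DNA expression and biogenesis, 12 were above 0 by their brightest probe sets, beside 48.1% of all measured genes, with a median of 0.18. With the mean over each gene's probe sets 9 were above 0 and the median was 0.05, and several of these genes had probe sets that disagreed. The regulators named here were also chosen after their values were seen. PPARGC1A, a coactivator of respiratory genes, was dim at 87 with FGF-AS siRNA and 52.5 with control siRNA (0.67). GABPA, the DNA-binding subunit of the ETS-family factor GABP that acts on many respiratory gene promoters, read 247.3 and 215.8 (0.19) on its brightest probe set but 98.9 and 199.9 (-0.97) on another. Its partner GABPB1 read 308.6 and 470.1 (-0.60) on an _x_at probe set but 204.9 and 195.6 (0.07) on another. NRF1, another activator of respiratory genes, read 125 and 114.1 (0.13), with 0.37, 0.31 and -0.48 on its other measured probe sets. TFAM, which packages mitochondrial DNA, read 1280.8 and 1083.1 (0.24), but -0.11, -0.35 and -0.37 were the ratios of its other 3. POLG, the polymerase of mitochondrial DNA, read 256.6 and 203.6 (0.33) and, on a dim probe set, 46.6 and 89.6 (-0.86).

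**Figure D5:**
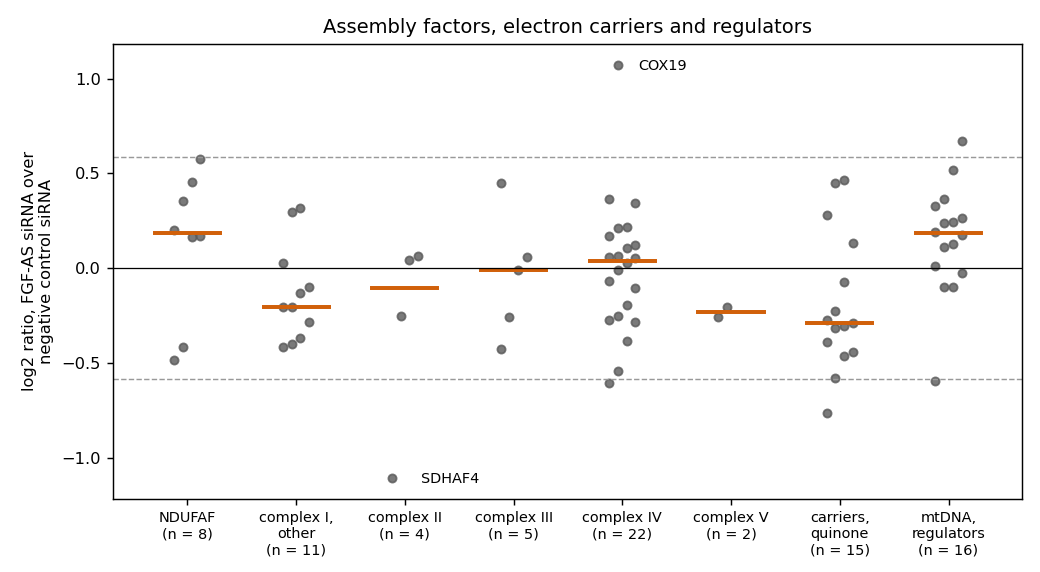
Log2 ratio (FGF-AS siRNA over negative control siRNA) of measured assembly factors by complex, of electron carrier and ubiquinone genes, and of mitochondrial DNA expression and biogenesis regulators. Each point is 1 gene, orange lines are medians, and dashed lines mark 1.5-fold. Medians run from -0.29 for carriers and ubiquinone synthesis to 0.18 for NDUFAF genes and regulators, and SDHAF4 (-1.11) and COX19 (1.07) lie furthest out.

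Promoter sequence, which the naming rule did not use, was compared for 77 of 92 symbols (95 windows). The RefSeq windows ran from 250 bases before to 50 bases after a gene's start (GRCh38.p14). Windows on a single chromosome, and any with letters other than A, C, G and T, were left out of every set. A symbol without a window here may thus still have an entry. Matches were sought on both strands, and the motifs were not required to be free of overlap. The NRF1 motif (GCGCA, any base, GCGC) was present in 17 windows (17.9%), the ETS and GABP motif CCGGAAG in 23 (24.2%) and the YY1 motif AANATGGCG in 18 (18.9%). Windows of other genes at the stricter minimum held them in 11.3%, 19.0% and 7.12% of cases, and all 35114 windows kept held them in 5.78%, 10.3% and 3.19%. The TATA box TATAAA was in 7 windows (7.37%), with 5.88% and 11.5% in those sets. A match is a description of letters and not a shown binding site.

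Among measured protein-coding members with a window, those with CCGGAAG nearly all read slightly higher with FGF-AS siRNA. With the motif, 20 of 21 genes had a ratio above 0, with a median of 0.17. Without it, 24 of 50 were above 0, with a median of -0.01. Among other genes at the stricter minimum no such contrast was seen: 47.7% of 1653 genes with the motif and 49.5% of 4850 genes without it were above 0. The contrast among members was noticed in these values, the ratios of most of the 21 genes were under the SD of 0.36, and it was given no test. Under quantile normalization 17 of the 21 genes with the motif and 23 of the 50 without it were above 0. With median centring these were 20 of 21 and 32 of 50, beside 56.6% and 56.9% of other genes with and without the motif. With the shorter words CCGGAA and CGGAAG the counts were 25 of 33 and 23 of 29, beside 19 of 38 and 21 of 42 without them. With the longer CCGGAAGT the median was 0.06 (10 of 11 above 0), beside 0.03 (34 of 60 above 0) without it. The difference in medians was thus small with the longer word. Members with and without the NRF1 motif had medians of 0.02 (16 genes) and 0.06 (55 genes), and those with and without the YY1 motif 0.08 (15 genes) and 0.04 (56 genes).

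The highest of the 21 were ATP5ME, NDUFAF4 and NDUFB7, and NDUFS1 was the only one below 0. The windows of ATP5ME (chr4:674227-674526, minus strand), NDUFAF4 (chr6:96897842-96898141, minus strand) and NDUFS1 (chr2:206159395-206159694, minus strand, the one of its 2 windows chosen for its match) are shown for this contrast. That of COXFA4L3 (chr15:45430360-45430659, plus strand) is shown for the gene furthest from 0, and it held no exact match to these motifs. For the TATA box only the word TATAAA was sought, so the run tatataag in this window was not counted. Capitals mark matches to the motifs above: CTTCCGG is the reverse complement of CCGGAAG, runs of 10 that start with GCGC are NRF1 matches in ATP5ME, and the last capitals of NDUFS1 are a YY1 match.
ATP5ME: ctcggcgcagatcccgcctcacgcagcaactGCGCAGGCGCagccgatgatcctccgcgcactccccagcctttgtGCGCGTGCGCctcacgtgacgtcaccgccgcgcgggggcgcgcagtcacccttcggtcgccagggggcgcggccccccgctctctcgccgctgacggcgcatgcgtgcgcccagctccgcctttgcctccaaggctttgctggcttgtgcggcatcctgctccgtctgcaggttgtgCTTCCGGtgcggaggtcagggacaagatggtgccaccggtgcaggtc
NDUFAF4: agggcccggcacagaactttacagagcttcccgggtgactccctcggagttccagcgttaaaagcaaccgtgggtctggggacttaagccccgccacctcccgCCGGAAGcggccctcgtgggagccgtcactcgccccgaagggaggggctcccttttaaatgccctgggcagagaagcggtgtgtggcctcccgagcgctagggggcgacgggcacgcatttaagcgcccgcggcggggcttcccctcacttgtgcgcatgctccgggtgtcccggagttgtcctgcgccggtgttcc
NDUFS1: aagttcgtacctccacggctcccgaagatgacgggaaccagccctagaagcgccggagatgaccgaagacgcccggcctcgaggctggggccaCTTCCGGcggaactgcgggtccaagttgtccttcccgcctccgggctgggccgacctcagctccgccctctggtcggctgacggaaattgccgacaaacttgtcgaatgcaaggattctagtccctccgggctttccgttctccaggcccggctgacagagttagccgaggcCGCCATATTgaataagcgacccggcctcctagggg
COXFA4L3: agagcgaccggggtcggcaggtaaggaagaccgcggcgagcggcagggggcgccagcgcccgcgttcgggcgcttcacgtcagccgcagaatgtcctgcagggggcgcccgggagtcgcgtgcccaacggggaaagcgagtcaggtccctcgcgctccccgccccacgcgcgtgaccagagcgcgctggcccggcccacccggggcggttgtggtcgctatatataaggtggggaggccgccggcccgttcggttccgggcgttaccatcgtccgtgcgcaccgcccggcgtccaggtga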

How the data were processed

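Total RNA of 2 transfected Seg-1 cultures was hybridised to 1 U133 Plus 2.0 array each, after oligo-dT priming and biotin labelling per the labels' protocols. The authors deposited 1 intensity per probe set and array, on a linear scale. Per the submitters' processing notes GCOS and MAS5 were used, with no version or role. The sources used here do not give the scaling between the arrays. Medians were 23.1 (FGF-AS siRNA) and 25.5 (control siRNA). The number of arrays limits the precision.

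Gene names came from the platform annotation. Of 54675 probe sets, 62 were Affymetrix controls, 41091 had 1 symbol, 1801 had several and 11721 had none. A further 15 probe sets that carry a name of this group together with another symbol were left out. All 175 probe sets of the group matched a RefSeq gene (GRCh38.p14), which changed 0 symbols. Of them 70 end in _s_at or _x_at.

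The added 6.1 equals the 25th percentile of signals, controls left out. It understates ratios of dim genes. No scaling was applied. Calculations used Python 3.11.15, numpy 2.4.6, pandas 2.3.3 and, for loess, statsmodels 0.14.6, and the ratio procedure was tested on simulated data. Named genes were those past 1.5-fold on a measured probe set, those furthest from 0 in each complex, NDUFAF and SDH genes, paralog families and catalytic subunits, and, of the related lists, those past 2-fold. Genes, lists and motifs were chosen with earlier results of these data known. Alternatives were other offsets, minimums, scalings and probe set rules.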

Additional observations from a re-analysis of the deposited data

How the results depend on the processing

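Of the genes past 1.5-fold, none changed sign under the alternatives that gave a value. ATP5ME, with _x_at probe sets alone, had none without these, and NDUFB2-AS1 and NDUFV2-AS1 had none at the stricter minimum. Among 86 measured genes 4 single values moved by more than the SD of 0.49 over all measured probe sets: ATP5PD, to 0.59 with the mean over probe sets and to 1.16 without _s_at and _x_at probe sets, and, under the latter, NDUFB7 (1.48) and NDUFV3 (-0.52). Ratios near 0 have no firm sign: 25 of the 86 genes changed sign in some setting. The median over all measured members (0.02) ran from 0.00 to 0.07, while that of all measured genes (-0.02) ran from -0.06 to 0.06. The median of RNA genes and pseudogenes (-0.57) was -0.36 with an offset of 32, and none of these genes reached the stricter minimum. Members at least 1.5-fold lower numbered 3, against 1 with an offset of 32, at the stricter minimum, with median centring, quantile normalization or loess, and without RNA genes and pseudogenes, an alternative chosen after seeing the data. Members at least 1.5-fold higher numbered 2, against 4 with median centring and 5 with the mean over probe sets. Members at least 2-fold higher numbered 1, against 2 with the mean over probe sets and 3 without _s_at or _x_at probe sets. At least 2-fold lower was 1, against 2 with no minimum. Other causes of these shifts were not tested. No paired analysis was possible because each group holds 1 array. Dim probe sets limit the RNA genes, the tissue forms of complex IV and most secondary probe sets.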
